A study of Mus musculus with 2 samples.

Results

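The interferon-induced antiviral gene families of the mouse were examined for regions bound by an antibody against the phosphatase PHLPP1. The members were the protein-coding genes of the RefSeq table on GRCm38.p6, the assembly behind mm10, whose symbols start with Ifit, Ifitm, Ifi2, Ifi3, Ifi4, Oas, Gbp, Mx1, Mx2, Rsad2, Isg15, Isg20, Bst2, Usp18 or Slfn. This rule gave 68 of 21887 protein-coding genes on the 19 autosomes, X and Y. They comprised 6 Ifit, 7 Ifitm, 11 Ifi200, 11 Oas, 10 Gbp and 9 Slfn genes, and 14 others. In all, 56 of the 68 lay in 10 genomic clusters, in which a gene lies within 500 kb of the next member, and 12 stood alone. Mx1 and Mx2 gave no member, because the table lists both as transcribed pseudogenes. Slfnl1, Isg20l2 and Ifi30 entered through their symbols and are not classical antiviral genes.

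The cells were primary alveolar macrophages, the resident macrophages of the airspaces, from bronchoalveolar lavage of wild-type mice. One group was left without cytokine (untreated). Cells of the other were stimulated for 4 h with 20 ng/ml of interleukin-4 (IL-4). There was 1 CUT&Tag library per group, a method in which an antibody guides a transposase that tags the DNA around the bound protein. With single libraries there was no replicate check and no test between the groups. The age and number of the mice and any control library without the PHLPP1 antibody are not given in the sources used here.

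Type I and type III interferons act through receptor-bound JAK kinases on transcription factors that bind the interferon-stimulated response element (ISRE) near the starts of genes such as these. Interferon gamma acts through the GAS element, and IL-4 acts through STAT6, which prefers a site with 1 more base in its centre. The proteins made from these genes hold back viruses and intracellular microbes: the IFIT proteins bind foreign RNA ends, the IFITM proteins block fusion at membranes, the OAS enzymes make an alarm nucleotide from double-stranded RNA, and the GBP enzymes attack microbe-holding vacuoles. PHLPP1 is known for removing phosphate from AKT.

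A region below is 1 entry of the authors' peak list for a library. A member was said to have a region when an entry touched the gene body or the 5 kb on either side. Fold is the authors' ratio of the fragments piled up at the summit, the highest point, to the background their caller estimated, with 1 added to each. It is not scaled between libraries. The pileup, the number of fragments at the summit, was recovered from fold and p. There were 165968 regions in the untreated and 226476 in the IL-4 list. The lowest pileup listed was 23 and 26 fragments, and the constant background 13.9 and 15.9, a ratio of 1.14. The intervals given are at 95%. Those of shares and of single pileup ratios are exact and cover counting error only.

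The promoter sequences are given first because the regulatory element that these genes are known for can be read in them. Those below are the 250 bases before the listed start, 5′ to 3′ on the gene's strand, from RefSeq on GRCm38.p6. In capitals stand the matches, on either strand, to the ISRE core GAAANNGAAA or to the GAS pattern TTCNNNGAA. The promoters of Gbp2 (chr3:142620413-142620662), Slfn2 (chr11:83064862-83065111), Ifitm6 (chr7:141016893-141017142), Ifi211 (chr1:173913047-173913296), Oas1c (chr5:120812515-120812764) and Ifit1bl1 (chr19:34601969-34602218) had the region of highest IL-4 fold at a promoter in their families. Ifi214 (chr1:173535958-173536207) and Ifi209 (chr1:173630609-173630858) had no region in either library. Ifit1 (chr19:34640639-34640888) and Bst2 (chr8:71537473-71537722) had a promoter region with IL-4 alone, and they were added after their values were seen.
Gbp2: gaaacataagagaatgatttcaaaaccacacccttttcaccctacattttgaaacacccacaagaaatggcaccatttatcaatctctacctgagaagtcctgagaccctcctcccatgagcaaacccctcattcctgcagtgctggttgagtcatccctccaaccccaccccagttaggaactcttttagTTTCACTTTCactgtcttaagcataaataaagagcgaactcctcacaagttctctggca
Slfn2: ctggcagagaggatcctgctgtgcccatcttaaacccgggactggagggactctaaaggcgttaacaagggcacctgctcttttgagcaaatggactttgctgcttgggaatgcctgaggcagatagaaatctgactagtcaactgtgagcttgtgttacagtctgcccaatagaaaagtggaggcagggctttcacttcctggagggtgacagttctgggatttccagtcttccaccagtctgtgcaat
Ifitm6: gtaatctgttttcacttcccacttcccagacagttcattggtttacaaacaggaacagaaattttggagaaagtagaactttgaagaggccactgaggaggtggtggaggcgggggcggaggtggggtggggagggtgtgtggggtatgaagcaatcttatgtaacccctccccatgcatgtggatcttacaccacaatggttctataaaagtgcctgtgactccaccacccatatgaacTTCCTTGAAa
Ifi211: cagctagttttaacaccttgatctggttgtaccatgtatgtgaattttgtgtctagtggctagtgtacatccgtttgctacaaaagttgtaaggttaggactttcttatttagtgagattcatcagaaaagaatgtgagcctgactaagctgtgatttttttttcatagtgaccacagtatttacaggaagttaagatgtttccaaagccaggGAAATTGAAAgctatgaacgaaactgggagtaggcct
Oas1c: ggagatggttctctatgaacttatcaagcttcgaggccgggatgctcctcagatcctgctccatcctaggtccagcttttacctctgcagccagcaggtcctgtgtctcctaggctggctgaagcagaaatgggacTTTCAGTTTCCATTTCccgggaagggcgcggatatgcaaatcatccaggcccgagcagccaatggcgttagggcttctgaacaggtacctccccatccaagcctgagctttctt
Ifit1bl1: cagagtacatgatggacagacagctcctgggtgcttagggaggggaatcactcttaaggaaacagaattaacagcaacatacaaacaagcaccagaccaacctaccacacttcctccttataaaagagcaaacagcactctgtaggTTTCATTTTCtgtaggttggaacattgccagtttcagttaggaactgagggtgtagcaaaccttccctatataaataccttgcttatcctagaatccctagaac
Ifi214: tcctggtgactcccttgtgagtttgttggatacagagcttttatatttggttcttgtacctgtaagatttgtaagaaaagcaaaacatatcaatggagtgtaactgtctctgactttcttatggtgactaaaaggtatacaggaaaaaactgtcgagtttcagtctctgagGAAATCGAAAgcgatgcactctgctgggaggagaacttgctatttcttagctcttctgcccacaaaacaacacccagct
Ifi209: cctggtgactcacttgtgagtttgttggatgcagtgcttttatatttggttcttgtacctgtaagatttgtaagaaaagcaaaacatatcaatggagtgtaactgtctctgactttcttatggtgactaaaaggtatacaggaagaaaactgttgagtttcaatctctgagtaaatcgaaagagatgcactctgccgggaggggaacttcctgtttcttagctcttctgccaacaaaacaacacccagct
Ifit1: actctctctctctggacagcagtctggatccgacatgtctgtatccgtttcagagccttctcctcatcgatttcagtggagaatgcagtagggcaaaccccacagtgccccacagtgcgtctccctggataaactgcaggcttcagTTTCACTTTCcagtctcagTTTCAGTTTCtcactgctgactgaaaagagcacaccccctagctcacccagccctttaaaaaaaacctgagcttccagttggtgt
Bst2: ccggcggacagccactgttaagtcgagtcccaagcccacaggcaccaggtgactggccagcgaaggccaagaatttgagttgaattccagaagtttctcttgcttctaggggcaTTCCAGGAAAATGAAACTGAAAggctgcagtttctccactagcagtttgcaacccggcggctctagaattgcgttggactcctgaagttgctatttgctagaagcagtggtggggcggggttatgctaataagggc

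The ISRE core began at -59 in Gbp2, counted from the start, at -37 in Ifi211, at -104 in Ifit1bl1 and at -79 in Ifi214. Ifit1 had 2 separate cores, at -104 and -85, and Bst2 had 2 overlapping ones, at -130 and -124, beside a GAS match at -136. Oas1c also had overlapping cores, at -114 and -108. Neither pattern occurred in the stretch shown for Slfn2 or Ifi209, and Ifitm6 held a GAS match alone. Ifi214 and Ifi209 have near-identical promoters, and the core of Ifi214 is interrupted in Ifi209.

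Over all members with a listed start, the ISRE core lay in the window from 250 bases before to 50 after a start in 30 of 55 genes (54.5%). Among all 17492 genes with such a window the share was 3.94%. The GAS pattern was held by 18.2% of the members against 8.92% of all genes, and TTCNNNNGAA, the spacing STAT6 prefers, by 23.6% against 7.37%. This pattern and GAS have the same ends and differ in the spacer, so a stretch can hold both. GAGGAA, the core bound by the macrophage factor PU.1, was in 36.4% of the members' windows and 30.5% of all, and GGGCGG, the GC box, in 30.9% against 49.2%. All matches are letters on either strand, not measured binding.

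Members with and without the ISRE core had regions at the start in shares a few percentage points apart. In the IL-4 library a region lay within 1 kb of a start in 19 of 30 members with the core (63.3%) and in 17 of 25 without it (68.0%). In the untreated library the numbers were 11 (36.7%) and 10 (40.0%). Of all genes with the core, 50.2% had a start region when untreated and 63.7% with IL-4, against 55.4% and 66.3% of genes without it.

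Most members had a region, and more had one in the IL-4 than in the untreated list. In untreated cells 51 of 68 members had one (75.0%, interval 63.0 to 84.7), where all protein-coding genes gave 82.1%. In IL-4 cells it was 63 of 68 (92.6%, 83.7 to 97.6), against 87.6%. Both intervals include the share of all genes. In all, 49 members had a region in both libraries (72.1%, against 80.0%). A further 14 had one in the IL-4 library alone (20.6%, 11.7 to 32.1), against 7.55% of all genes, which lies outside that interval, although neighbouring members share regions and are not independent. With 10 kb on each side the number was 8 (11.8%), against 5.31% of all genes. Bst2, Gbp4, Gbp10, Oasl2, Ifit1bl2 and Slfn3 have their nearest untreated region between 5.15 and 9.10 kb away. Another 2 had one the untreated library alone, Ifi205 and Gbp6 (2.94%, against 2.04%). Ifi214, Ifi209 and Slfn8 had none in either. The median window of a member was 24.7 kb and that of all genes 27.2 kb.

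Most regions over the members lay below fold 3, which 20 of 101 untreated and 45 of 200 IL-4 regions reached. They were not weaker than regions elsewhere: their median fold, 2.38 untreated and 2.37 with IL-4, lay slightly above that over all genes. Read by gene, a smaller share of members than of all genes reached fold 3. A region of fold 3 or more lay over 17 members in the untreated library (25.0%, against 41.3% of all genes) and over 32 in the IL-4 library (47.1%, against 59.2%). At this limit 16 members (23.5%) passed in the IL-4 library alone, close to the 19.1% of all genes. With a limit of 5 on −log10 q instead, 32 members (47.1%) passed in IL-4 alone, against 23.1% of all genes. The median strongest fold of a member was 2.48 untreated and 3.08 with IL-4, and that of all genes 3.02 and 3.79. Of the 49 members with a region in both lists, 40 had the higher strongest fold in the IL-4 list (81.6%), as did 84.8% of all such genes.

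**Figure D1:**
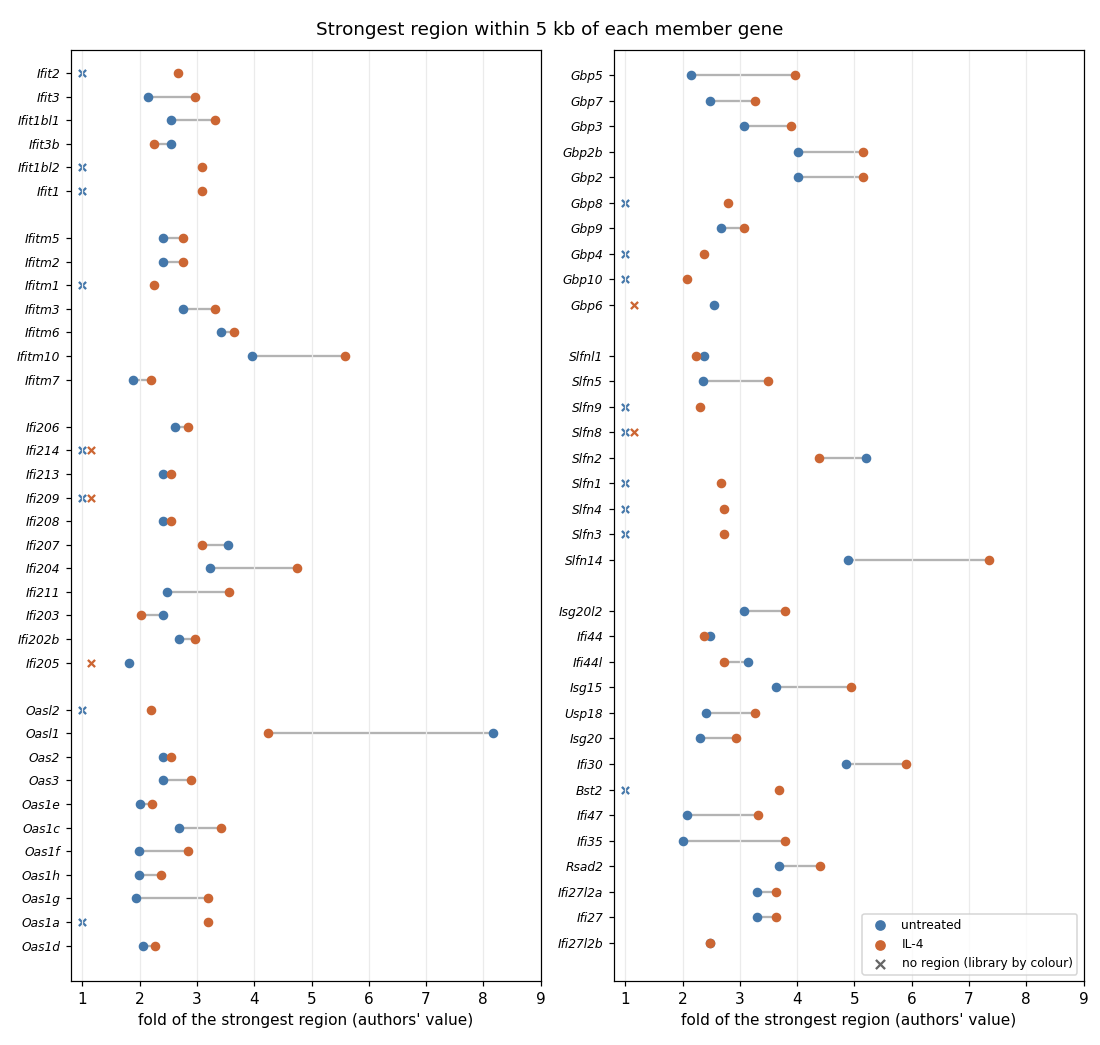
Each line is 1 of the 68 members, grouped by family, and the horizontal axis is the authors' fold of the strongest region in its window, blue for the untreated and orange for the IL-4 library (1 library each, so no error bars); a cross marks a library with no region. Most members lie between 2 and 4, and Oasl1 is the farthest to the right, at 8.16 untreated against 4.24 with IL-4.

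Starts were read separately. A region lay within 1 kb of a listed start in 21 of 55 untreated members (38.2%, 25.4 to 52.3), against 55.2% of all genes, and in 36 (65.5%, 51.4 to 77.8) in the IL-4 library, against 66.2%. In 15 members (27.3%) the start had a region in the IL-4 library alone, against 13.9% of all genes. For regions of fold 3 or more the number was 7 (12.7%), below the 14.3% of all genes. In none was it in the untreated library alone, against 2.89%. The 13 members with no listed start, among them Ifi204, Oas2, Usp18 and the 5 Gbp genes of chromosome 5, stood outside this count.

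**Figure D2:**
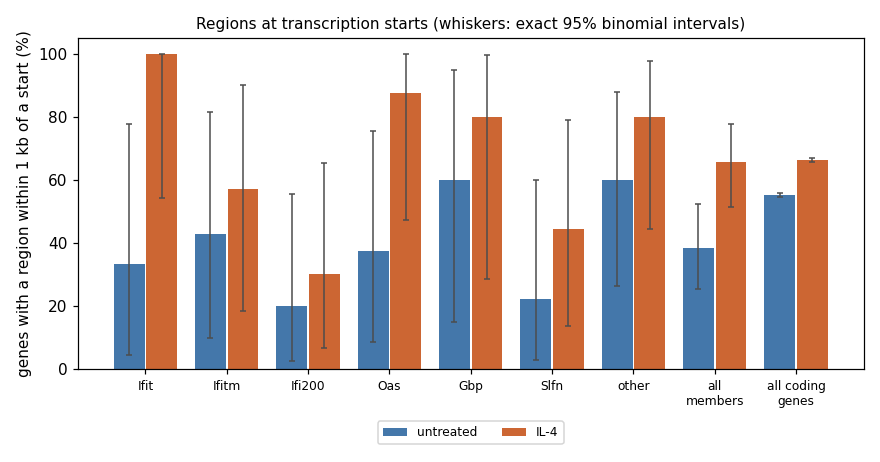
Share of genes with a region within 1 kb of a listed start, in percent, by family and library; whiskers are exact 95% binomial intervals over genes and cover counting error only. All 6 Ifit genes had a start region with IL-4, where the members together reached 65.5% and all coding genes 66.2%. When untreated 2 Ifit genes had one (33.3%), against 55.2% of all coding genes.

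Counted as regions rather than genes, the IL-4 list held more over the members as well. The members' windows together, 1593 kb, held 101 untreated and 200 IL-4 regions, 1.98 times as many, over 42.9 and 89.4 kb of DNA. Windows of all genes held 85669 and 128235, 1.5 times as many. Per 100 kb this was 6.34 and 12.6 regions for members, and 7.25 and 10.8 for all genes. Of the untreated regions over members, 82.2% (73.3 to 89.1) shared at least 1 bp with an IL-4 region, against 68.7% over all genes. Of the IL-4 regions over members, 41.5% (34.6 to 48.7) shared 1 bp with an untreated region, against 45.3%.

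**Figure D3:**
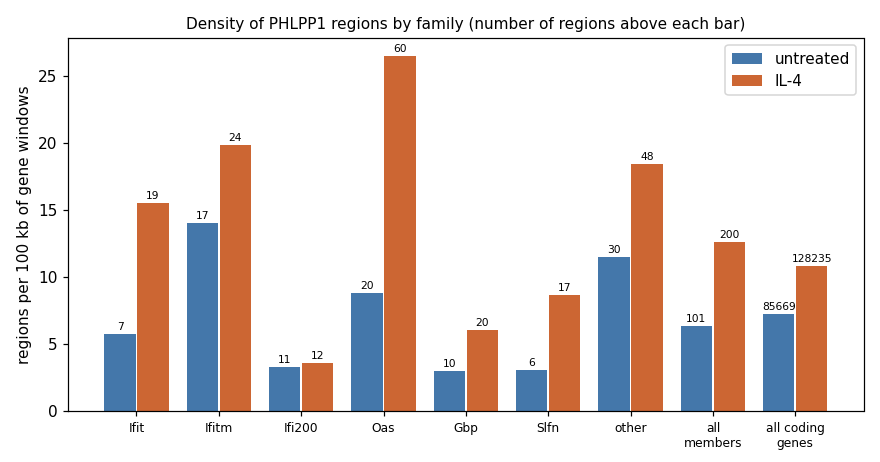
Regions per 100 kb of gene windows, by family and library (1 library each), with the number of regions above each bar. The Oas bars are the most unequal, with 20 regions untreated and 60 with IL-4, and the Ifi200 bars nearly equal, with 11 and 12.

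Because these genes lie close together, some regions counted for more than 1 gene. In the untreated library 33 of 101 regions over members (32.7%) also lay in another gene's window, 16 of them over 2 or more members, and 9 had a gene outside the families as their nearest. In the IL-4 library these numbers were 55 of 200 (27.5%), 32 and 15. Summits fell inside a member's body for 61 untreated and 126 IL-4 regions. Aligned reads from near-identical copies in these families may have been placed on 1 copy or split, and how the authors treated such reads is not given in the sources used here. Ifi213 and Ifi208 show regions of the same height, 35 fragments untreated and 42 with IL-4 in each, 9.35 and 9.29 kb downstream of their starts.

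The Ifit genes, on chromosome 19 (chr19:34550550-34662981), all had a start region in the IL-4 library (6 of 6, against 66.2% of all genes). In the untreated library 2 had one (33.3%, interval 4.33 to 77.7, against 55.2%). In 4 genes (66.7%, against 13.9%) the start had a region with IL-4 alone, and Ifit1 and Ifit1bl2 among them share 1 region. The cluster held 7 untreated and 19 IL-4 regions, and no untreated one reached fold 3. Ifit2, Ifit1 and Ifit1bl2 had none in untreated cells. In IL-4 cells Ifit1, whose protein binds viral RNA caps, had a region across its start (chr19:34640621-34641049) of fold 2.96 and 49 fragments. Ifit1bl2 starts within the same region on the other strand, so the single region counts for both genes and for the long Ifit1bl1 model that spans them. The nearest untreated region was 26.5 kb from the body of Ifit1 and 7.35 kb from that of Ifit1bl2.

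Ifit2, whose protein forms complexes with IFIT1 and IFIT3, had 4 IL-4 regions, of which one at the start (chr19:34550485-34551028) had fold 2.61 and 43 fragments. Ifit3 had regions in both libraries, but in different places. Its 2 untreated regions lay past the 3′ end, at fold 2.15 and 1.94, and its strongest IL-4 region lay at the start (chr19:34583093-34583563), at fold 2.96. Ifit1bl1 had 7 and 14 regions, the strongest of fold 2.54 and 3.32, at different places. Ifit3b lies inside the Ifit1bl1 model and had 3 in each library, all of which also count for Ifit1bl1. The strongest fold of Ifit3b was 2.54 untreated and 2.25 with IL-4, from 39 and 41 fragments. Its untreated region of fold 2.54 is the same region as that of Ifit1bl1. The 5 pairs of overlapping regions in the cluster had a median pileup ratio, IL-4 over untreated, of 1.27, the same as the median over all 104335 overlapping pairs of the 2 lists.

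**Figure D4:**
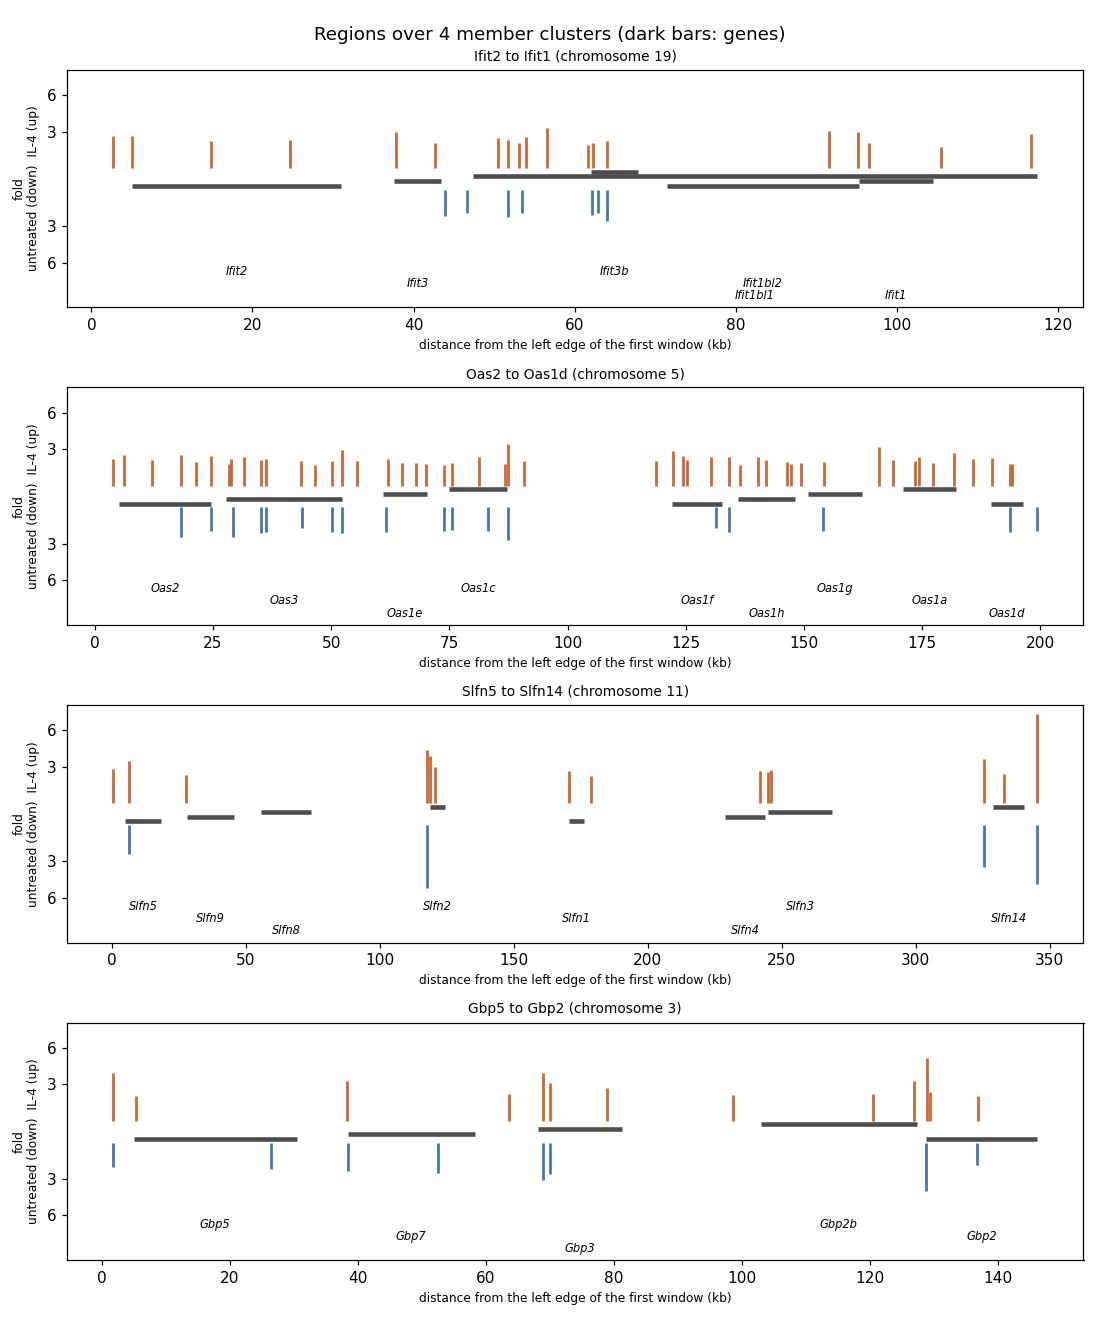
Regions over the Ifit, Oas, Slfn and chromosome 3 Gbp clusters; the horizontal axis is the distance in kb from the left edge of the first gene's window, vertical lines are regions with the authors' fold as their length, IL-4 upwards in orange and untreated downwards in blue, and dark bars are genes. Starts of Ifit2, Ifit3 and Ifit1 have orange lines alone, and the line at Slfn14 of fold 7.35 is the longest with IL-4.

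The OAS enzymes lie in 2 groups on chromosome 5. The larger (chr5:120730333-120921648), from Oas2 to Oas1d, held 18 untreated and 49 IL-4 regions, 10.2 and 27.8 per 100 kb. These were low: no untreated region and 2 IL-4 regions reached fold 3. The background the caller used was also raised here, and only 16.3% of the IL-4 regions had the constant background, against 48.0% over all genes. The part of this background in the number of regions was not tested. Oas1c, Oas3 and Oas1a or Oas1g led the cluster by −log10 q. At the start of Oas1c (chr5:120812406-120812849) fold was 2.68 untreated and 3.42 with IL-4, from 39 and 66 fragments, a pileup ratio of 1.69 (interval 1.12 to 2.58). At the start of Oas3, the longest OAS enzyme, fold was 2.14 and 2.89, from 34 and 62 fragments.

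Oas1a, an active synthetase of the mouse, had no untreated region, the nearest being 11.4 kb away. In IL-4 cells it had 7, the strongest of fold 3.20 lying between it and Oas1g (chr5:120891115-120891440) and another of fold 2.67 at the start (chr5:120906919-120907559). Oas1g had 1 untreated region of fold 1.94, and 5 with IL-4. For Oas2, Oas1e, Oas1f, Oas1h and Oas1d the strongest fold lay between 1.99 and 2.41 untreated and between 2.22 and 2.85 with IL-4. All 9 genes of this cluster thus had regions in the IL-4 library (against 87.6% of all genes), and 8 in the untreated one (88.9%, against 82.1%).

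Oasl1, which holds back translation of the interferon regulator IRF7, had the strongest region of any member in the untreated library, with a lower fold in the IL-4 library. This region (chr5:114922314-114922667), with its summit at -0.754 kb from the start, had fold 8.16 from 124 fragments untreated. With IL-4 its fold was 4.24 from 95 fragments, while the background used was 14.3 and 21.6. The pileup ratio was 0.766 (0.580 to 1.01), an interval that includes 1. Of 2364 overlapping pairs with an untreated fold of 5 or more, 3 had a fold ratio of 0.520 or less, this region included, and 17 a pileup ratio as low. The median pileup ratio of those pairs was 1.54. The other Oasl1 region in both lists, 2.55 kb inside the gene, went from 38 to 69 fragments, and the gene had 2 regions untreated and 8 with IL-4. Its neighbour Oasl2, an active synthetase, had 3 regions with IL-4, the strongest of fold 2.19 at 0.820 kb past the start, and none untreated.

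**Figure D5:**
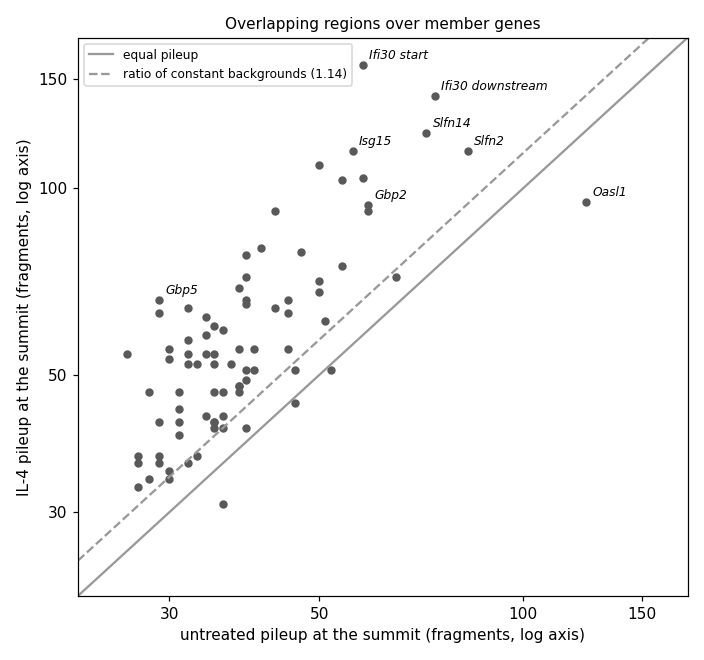
Each point is 1 of the 83 overlapping pairs of regions over members, with fragments at the summit in the untreated library (horizontal) and in the IL-4 library (vertical), both on log axes; the solid line is equal pileup and the dashed line the ratio of constant backgrounds, 1.14. Oasl1, at 124 and 95 fragments, lies below both lines, and the Ifi30 start region, at 58 and 158, lies far above.

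Over the 83 pairs as a whole the median pileup ratio was 1.42 (interval of the median 1.35 to 1.54), against 1.27 for all pairs of the lists. That interval comes from the ranks of the 83 ratios and treats the pairs as independent. Several pairs lie in 1 gene, as at Ifitm10, and all come from 1 library per group, so it is no test against 1.27. It exceeded 1.14 in 72 pairs (86.7%), against 68.3% of all pairs. The pileup was lower with IL-4 in 4 pairs (4.82%), against 11.6%: at Oasl1, Ifi207, Ifi44 and Ifi44l. Among pairs with an untreated fold of 3 or more, where regions are farther from the listing limit, the median was 1.51 for the 20 member pairs and 1.46 for all, and the pileup was lower with IL-4 in 3 (15.0%), the same share as in all. Pileups were not scaled for depth.

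The IFITM genes, whose products sit in membranes, had a region in 6 of 7 cases untreated (85.7%, against 82.1% of all genes). With IL-4 it was 7 of 7 (against 87.6%). In the chromosome 7 cluster (chr7:140948958-141016892) Ifitm6 led, with a region at its start (chr7:141017143-141017593) of fold 3.42 from 50 fragments untreated and 3.65 from 71 with IL-4. For Ifitm3, the member best known for blocking influenza virus, fold was 2.75 untreated and 3.32 with IL-4, from 40 and 55 fragments, at 1.63 kb past the start. Ifitm1 had 3 regions with IL-4, of fold 1.78 to 2.25, and none untreated. Ifitm5, a bone gene, and Ifitm2 share the region of fold 2.41 and 2.75 between them. Ifitm10, 1 gene of 47.9 kb that stands alone, held most of the regions of the family, 12 of 17 untreated and 13 of 24 with IL-4. Its strongest had fold 3.96 from 58 fragments untreated and, at another place (chr7:142349392-142349909), 5.59 from 103 with IL-4. Ifitm7 had fold 1.88 and 2.19, in a region whose nearest gene is Bmerb1.

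The Ifi200 genes, sensors and regulators that bind DNA, had few regions, and few more with IL-4. Over their cluster on chromosome 1 (chr1:173468485-174031755) there were 3.31 regions per 100 kb untreated and 3.61 with IL-4, with 7.25 and 10.8 over all genes. No gene of this family had a region in the IL-4 library alone (0 of 11, interval 0 to 28.5%), an interval that includes the 7.55% of all genes. Ifi204, the mouse relative of the sensor IFI16, had the strongest with IL-4, of fold 4.74 and 3.22 untreated, from 79 and 47 fragments (chr1:173766734-173767215), a ratio of 1.68 (1.16 to 2.47). At the start of Ifi211 fold was 2.48 and 3.56, from 36 and 59 fragments. At the start of Ifi207 the pileup was 52 untreated and 51 with IL-4, and fold 3.55 and 3.08.

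For Ifi206, Ifi213, Ifi208 and Ifi202b fold was between 2.41 and 2.68 untreated and between 2.55 and 2.96 with IL-4. The 2 regions of Ifi203, of fold 2.41 untreated and 2.02 with IL-4, did not lie at the same place. Ifi205 had 1 untreated region of fold 1.81 from 26 fragments and none with IL-4. Its listed −log10 q was 1.00. Around Ifi214 the nearest region was 39.5 kb away untreated and 21.0 kb with IL-4, and around Ifi209 6.87 and 14.7 kb.

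The guanylate-binding proteins fall in 2 clusters. On chromosome 3 (chr3:142496934-142638008) all 5 genes had regions in both libraries, and each had the higher strongest fold with IL-4. Of all genes, 80.0% had regions in both, and 84.8% of those had the higher strongest fold with IL-4. The region across the start of Gbp2 (chr3:142620385-142620941) had fold 4.02 from 59 fragments untreated and 5.15 from 94 with IL-4, a ratio of 1.59 (1.14 to 2.25). It also lies in the window of Gbp2b and is the strongest there. The region at -3.24 kb from the start of Gbp5, which acts with GBP2 in inflammasome responses, had fold 2.01 from 29 fragments and 3.97 from 66, a ratio of 2.28 (1.45 to 3.65). For Gbp3 the strongest fold was 3.08 untreated and 3.90 with IL-4. For Gbp7 it was 2.48 and 3.26, at different places, and the region at the Gbp7 start had 2.35 and 3.26.

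On chromosome 5 (chr5:105012513-105295871) the 5 Gbp genes had 2 untreated and 7 IL-4 regions. Gbp9 had a region in both libraries at one end (chr5:105110210-105110537), of fold 2.68 and 3.08. Gbp8 had 3 with IL-4, up to fold 2.79, and none untreated. Gbp4 and Gbp10 had 1 weak region each with IL-4, of fold 2.37 and 2.08, and the Gbp4 region is also in the window of Gbp9. For both genes an untreated region lay just past the 5 kb limit, at 5.23 and 5.32 kb. Gbp6 had 1 region untreated, of fold 2.55 from 37 fragments (chr5:105267208-105267466), and none with IL-4 within 9.03 kb.

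The Schlafen genes, which restrain growth and viral protein synthesis, had a region in 4 of 9 cases untreated (44.4%, interval 13.7 to 78.8, against 82.1% of all genes). With IL-4 it was 8 of 9 (88.9%, against 87.6%). Across the chromosome 11 cluster (chr11:82951349-83286726) there were 4 regions untreated and 14 with IL-4. Slfn9, Slfn1, Slfn4 and Slfn3 had regions with IL-4 alone, with a strongest fold of 2.31, 2.67, 2.73 and 2.73. Slfn4 and Slfn3 share all 3 of theirs, one of them across the start of Slfn3 (chr11:83191071-83191409), so these 2 genes give 1 observation. From Slfn1 the nearest untreated region was 51.5 kb away, and from Slfn9 21.4 kb. For Slfn8, with none in either library, the nearest lay 42.5 kb away untreated and 18.5 kb with IL-4.

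Slfn2, which is needed for the quiescence of T cells and monocytes, had a broad untreated region up to its start (chr11:83063315-83065365). Its fold was 5.20 untreated and 4.38 with IL-4, whereas the pileup was 83 and 115 fragments, since the background used was 15.2 and 25.5. Here the 2 measures point in opposite directions. Slfn14 had the strongest IL-4 region of all members (chr11:83291430-83291814), at -4.89 kb from its start, with fold 4.89 from 72 fragments untreated and 7.35 from 123 with IL-4. Slfn5 had fold 2.35 and 3.50, from 34 and 58 fragments, at 0.812 kb past its start. Slfnl1, a distant relative on chromosome 4, had a strongest fold of 2.38 untreated and 2.24 with IL-4, at different places. At the first (chr4:120528697-120529084), also in the window of Scmh1, fold was 2.38 and 2.03. At the second (chr4:120535391-120535733), also in the window of Ctps, it was 1.95 and 2.24.

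Among the remaining genes, 13 of 14 had a region in both libraries (92.9%, against 80.0% of all genes). Bst2, the tetherin that holds budding virus at the cell surface, was the exception: its start (chr8:71537248-71537869) had a region of fold 3.68 from 61 fragments with IL-4 alone, the highest fold among the 14 members with IL-4 regions only. An untreated region lay 5.15 kb from the gene, just outside the window. Ifi30, a lysosomal thiol reductase of antigen presentation, had 4 regions untreated and 3 with IL-4. Its start region (chr8:70766587-70767086) had 58 fragments untreated and 158 with IL-4. That ratio of 2.72 (2.0 to 3.75) was the highest of the 83 pairs, with fold 3.06 and 4.63. The strongest Ifi30 region by fold, 4.86 and 5.90, is also in the windows of Rab3a and Mpv17l2, and the start region in that of Pik3r2.

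In the window of Isg15, the ubiquitin-like modifier, the strongest region had fold 3.64 from 56 fragments untreated and 4.94 from 115 with IL-4. It lay 2.77 kb past the start (chr4:156197293-156198283), 1.14 kb outside the gene untreated and 1.13 kb with IL-4. Its nearest gene was Agrn, and it is also in the window of Perm1. All 3 IL-4 regions in the Isg15 window had Agrn or Perm1 as their nearest gene. The start of Isg15, with an ISRE core, had no region within 1 kb in either library. Usp18, the protease that removes ISG15, had 1 region untreated and 8 with IL-4, with a strongest fold of 2.41 and 3.26. Rsad2, which encodes the nucleotide-modifying enzyme viperin, had fold 3.69 from 54 fragments and 4.40 from 75 at -3.73 kb from its start. Ifi47, an immunity-related GTPase, had 1 region untreated and 5 with IL-4. The untreated region had fold 2.08, and 3.20 with IL-4, and the strongest IL-4 region, of fold 3.32, lay elsewhere. At the start of Ifi35 fold was 2.01 from 29 fragments and 3.79 from 63, a ratio of 2.17 (1.38 to 3.50), in a window shared with Rpl27.

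Isg20, an exonuclease, had a strongest fold of 2.31 untreated and 2.94 with IL-4, at different places. At the first (chr7:78913627-78913942) fold was 2.31 and 1.99, and at the second (chr7:78912235-78912610) 2.03 and 2.94. Both places are also in the window of Aen. Isg20l2 had fold 3.08 and 3.79, in a window shared with Rrnad1. Ifi27 and Ifi27l2a overlap and share their strongest region, of fold 3.30 and 3.63, and Ifi27l2b had 2.48 in both. Ifi44 and Ifi44l did not have the higher fold with IL-4. At Ifi44 the strongest fold was 2.48 untreated and 2.37 with IL-4, at different places. Where it was 2.48 untreated, it was 1.90 with IL-4. At Ifi44l the strongest region had 3.15 and 2.73, and the pileup was 46 and 45 fragments.

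For other genes of the interferon pathway, counts are read against the 80.0% of all protein-coding genes with a region in both libraries. All 9 interferon receptor and kinase genes and all 9 transcription factor genes of the lists had a region in each. Their median strongest fold was 3.82 untreated and 5.20 with IL-4 for receptors and kinases, and 3.62 and 4.71 for the factors, above the members' 2.48 and 3.08. Ifnar1, a chain of the type I receptor, had 8.05 and 11.8. Of 13 sensors and adaptors 12 had a region in both, and Tlr7 in neither. Of 37 other interferon-induced genes 34 had a region in both libraries (91.9%). The median strongest fold of this list was 3.06 untreated and 4.03 with IL-4. Of the 37, 1 had a region with IL-4 alone (2.70%, interval 0.0684 to 14.2): Cxcl9, a chemokine, at fold 3.38. That share was 7.55% of all genes and 20.6% of the members. The GTPase genes Tgtp1 and Tgtp2 had no region in either library.

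Markers of cell types other than macrophages also had regions in the IL-4 list alone. All 20 alveolar macrophage markers had a region in each library (interval 83.2 to 100%, against 80.0% of all genes), Siglecf with fold 3.08 and 3.93 and Marco with 2.55 and 3.14. Of 14 lymphocyte markers 9 had a region untreated and 13 with IL-4, so that 4 (28.6%, interval 8.39 to 58.1) had one in the IL-4 library alone, among them Cd3e at fold 2.15. For 15 lung epithelium markers the numbers were 12, 15 and 3 (20.0%, 4.33 to 48.1), with Sftpc at 2.09 and 2.16, and for 11 granulocyte markers 8, 10 and 2 (18.2%, 2.28 to 51.8), with S100a8 at 4.89 and 7.11. Ncr1 and S100a9 had none in either library. Among markers with a region, the median strongest fold was 2.95 untreated and 3.96 with IL-4 for alveolar macrophages, and 2.62 and 3.02 for lymphocytes. It was 2.47 and 2.67 for lung epithelium, and 2.65 and 3.44 for granulocytes. Single markers lay far from these medians, with Cd79a of lymphocytes at 6.30 and 7.71 and Ager of lung epithelium at 5.99 and 5.57. The share in IL-4 alone was 7.55% of all genes and 20.6% of the members. The intervals of the lymphocyte, lung epithelium and granulocyte lists all include the members' share. Those of lung epithelium and granulocytes also include the share of all genes. For the macrophage markers the share was 0 of 20 (interval 0 to 16.8%), which includes the share of all genes but not that of the members. The part of other cells in the members' result was not tested.

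Of the rule's symbols, 8 belong to pseudogenes or non-coding genes and were not counted. Mx1 and Mx2, whose human relatives trap viral capsids, had regions in both libraries, with a strongest fold of 2.65 and 3.52 at Mx1 and 2.50 and 3.01 at Mx2.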

How the data were processed

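Per the labels' protocols, a commercial CUT&Tag kit and an antibody against PHLPP1 were used on alveolar macrophages. Bowtie 0.12.8, MACS2 2.2.7.1, DiffBind and mm10 are named per the submitters' processing notes; settings, filters and the handling of reads with several matches are not given in the sources used here. Both libraries have a list that the authors deposited, each called separately. Its fold is the authors' ratio of pileup to background. The deposited −log10 p and −log10 q values are against that same background. The score the authors deposited is the −log10 p multiplied by 10 and truncated, and another deposited column gives the summit's offset in bp. The lowest −log10 p was 2.00 untreated and 2.03 with IL-4.

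Regions were joined to the RefSeq gene table of GRCm38.p6, which gives no strand; starts came from its promoter table. Exon, intron and UTR positions were not analysed here. Pileups were recovered from fold and p, and were whole within 0.05 for 100% of regions with a −log10 p under 250. The depth in reads is unknown, so pileups are unscaled. Intervals of shares are Clopper-Pearson, and those of single pileup ratios come from the binomial split of the 2 pileups. The interval of the median pileup ratio comes from the ranks of the 83 ratios. Every member is accounted for; those described in full were the up to 3 of highest −log10 q in each cluster or family, those with a region in 1 library alone, and those with none. Members, gene lists and rules were chosen with earlier results of these data known. Some items are not reported here. Others named, such as Ifnar1 and the marker examples, were chosen after their values were seen. Overlap and recovery code was tested on simulated data. Alternatives changed the window, the fold and q limits, the overlap and the list length. Python 3.11.15, numpy 2.4.6, pandas 2.3.3, scipy 1.17.1 and matplotlib 3.10.9 were used.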

Additional observations from a re-analysis of the deposited data

How the results depend on the processing

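Of 92 alternative values, 62 moved by less than 1.5 times, or less than their interval, and 30 moved further; those for starts were chosen after seeing the data. With the gene body alone, 1 member had a region in the untreated library alone (1.47%, against 1.92% of all genes). Another count, of members at fold 3 untreated, was 10 (14.7%, against 35.3%). Within 1 kb of either gene end, 33 had a region untreated (48.5%, against 57.5%) and 1 in the untreated library alone (1.47%, against 3.06%). There 21 reached fold 3 with IL-4 (30.9%, against 40.1%), regions numbered 43 and 76, and 52.6% of the IL-4 ones were overlapped. With 10 kb on each side, 8 had a region in IL-4 alone (11.8%, against 5.31% of all genes) and 1 in untreated alone (1.47%, against 2.22%). At fold 3, members numbered 17 untreated (25.0%, against 41.3%), 32 with IL-4 (47.1%, against 59.2%) and 1 in untreated alone (1.47%, against 1.14%). Regions numbered 20 and 45, and 90.0% of untreated regions were overlapped. Starts numbered 9 untreated (16.4%, against 27.3%), 15 with IL-4 (27.3%, against 41.3%) and 7 in IL-4 alone (12.7%, against 14.3% of all genes). At a −log10 q of 5, members numbered 21 untreated (30.9%, against 53.3%), 32 in IL-4 alone (47.1%, against 23.1%) and 0 in untreated alone (against 1.02%). Regions numbered 28 and 98, and overlapped shares were 100% and 29.6%. Starts numbered 11 untreated (20.0%, against 33.9%). A reciprocal overlap of 50% gave shares of 54.5% and 27.5%. Asking that no region of a member overlap one of the other library gave 5 members in untreated alone (7.35%), and the share of all genes was not computed. The causes of these shifts were not tested. Without Slfnl1, Isg20l2, Ifi30 and Slfn14, 14 members had a region in IL-4 alone. With the IL-4 list cut to the length of the untreated list, 14 members also did (against 6.33% of all genes). No paired analysis was possible because each group held 1 library and the result comes from no test. The listing limit of about 23 to 26 fragments bounds what could be detected: a member without a listed region may still hold fragments below it.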
